A study of Homo sapiens with 5 samples.

Results

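All-trans retinoic acid (ATRA) was compared with no treatment in HL60 cells, a line established from a human promyelocytic leukemia, by in-solution Hi-C with HindIII. The comparison takes the matrix of the ATRA condition, 1 library labelled as treated with retinoic acid, against the untreated matrix, in which 2 libraries are merged. These are 3 of the 5 samples of the series, and the TPA libraries serve only as another source for compartment labels. Dose and duration of ATRA are not given in the labels used here. Members are the autosomal bins of 500 kb on hg19: of 5773 in the files, 5349 held at least 0.2 times the median number of contacts in both matrices and lay on an assigned chromosome arm. The longest run of bins without contacts, at the centromere or, on 5 chromosomes, from the chromosome start, divided the autosomes into 39 arms.

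Hi-C joins DNA fragments that lie near each other in the nucleus, and each joined pair is a contact. Gene-rich, active chromatin meets other active chromatin more often (the A compartment), and gene-poor, silent chromatin meets silent chromatin (the B compartment). ATRA binds retinoic acid receptors, which sit on DNA at paired short motifs, and drives HL60 cells toward neutrophil-like cells that stop dividing. Neutrophil maturation runs from primary granules, made at the promyelocyte stage, through secondary and tertiary granules to receptors and the oxidase of the mature cell.

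With 1 matrix per condition no replicate check exists, so no p-value is given and a call means only that a value passed a fixed size. Intervals are 95% and cover counting error alone. The matrices held 9254681 autosomal contacts for ATRA and 10247796 for untreated cells, and the median bin held 3300 and 3520. Contacts within chromosomes made up 32.1% of the ATRA matrix and 39.5% of the untreated matrix. That difference moves with most of the values described here, and its part in them was not tested, so arms, places on the arm and gene lists are also given from contacts between chromosomes alone. ATRA and library cannot be told apart. Both matrices carried HL60's known gain at MYC, the growth-promoting transcription factor, whose bin held 5.32 times the median in ATRA and 5.15 times in untreated cells. The bin of CDKN2A, a cell cycle inhibitor lost in HL60, held 0.509 and 0.445 times the median.

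The genes that respond to ATRA most directly carry a retinoic acid response element. Of 23 retinoid pathway genes, 20 matched the RefSeq promoter table (GRCh38.p14, from 250 bases before to 50 after each start site), and 2 of these genes had a promoter that held the core motif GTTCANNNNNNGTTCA, searched on both strands. The motif was in 20 of all 35116 promoters, or 0.057%. A match describes the letters only. The 2 are shown because they mark the retinoid genes whose bins are described next, with the fixed letters of the motif in capitals. The CYP26A1 window is chr10:93073643-93073942 on the plus strand of GRCh38.p14, with the motif on the opposite strand and its first base at -90 from the start site. The RARB window is chr3:25428013-25428312 on the plus strand, with the motif on that strand from -52.
CYP26A1: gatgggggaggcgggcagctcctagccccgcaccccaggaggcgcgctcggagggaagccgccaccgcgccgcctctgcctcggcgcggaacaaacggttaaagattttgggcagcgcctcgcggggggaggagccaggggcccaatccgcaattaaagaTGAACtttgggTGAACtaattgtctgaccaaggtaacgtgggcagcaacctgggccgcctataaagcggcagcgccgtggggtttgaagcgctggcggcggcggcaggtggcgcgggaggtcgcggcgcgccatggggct
RARB: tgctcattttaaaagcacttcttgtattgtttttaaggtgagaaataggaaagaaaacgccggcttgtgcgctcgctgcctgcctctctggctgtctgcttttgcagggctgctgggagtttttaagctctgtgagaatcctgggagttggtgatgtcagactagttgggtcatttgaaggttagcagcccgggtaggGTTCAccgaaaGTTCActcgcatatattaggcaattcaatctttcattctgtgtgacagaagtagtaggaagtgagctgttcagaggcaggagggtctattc

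The matrices resolve 500 kb, so no value belongs to these promoters alone. CYP26A1, the enzyme that breaks down retinoic acid, lies on hg19 chromosome 10 in the bin from 94.5 to 95 Mb together with its relative CYP26C1. That bin held 3708 contacts in ATRA and 4256 in untreated cells, a log2 ratio of contact shares of -0.05 (-0.12 to 0.01). Of its contacts with A or B bins of other chromosomes, 54.3% were with A bins in ATRA and 52.9% in untreated cells. Across all kept bins this A share went the other way, from 50.4% in untreated cells to 47.6% in ATRA. Relative to the median bin, the A share of the CYP26A1 bin was higher by 0.20 ± 0.08 (log2 odds, counting SE), below the size used for a call (0.32). At the median bin, contacts under 2 Mb took a smaller part of the contacts along the chromosome in ATRA, by 0.50 (log2 odds). Relative to that, the CYP26A1 bin was higher by 0.53 ± 0.12, which is past the limit of 0.5. Its own part of contacts under 2 Mb was thus nearly the same in both matrices. RARB encodes a retinoic acid receptor that retinoic acid itself induces, and its bin on chromosome 3 (25 to 25.5 Mb) held 1826 and 1844 contacts. Its A share change was 0.05 ± 0.12, while its compartment score along the chromosome was -1.09 before treatment and 0.10 in ATRA, in SD of the chromosome's scores.

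Coverage, the share of all contacts that touch a bin, was lower in ATRA on small arms known for dense genes. Arm values sum the coverage of the arm's bins, so a contact between different bins of an arm counts at each of them. Arm counts therefore exceed the contacts that touch the arm and give more weight to contacts within it, and their intervals are too narrow. By arm, the log2 ratio ran from -0.38 in 19p (summed counts of 135157 in ATRA and 194255 in untreated cells, -0.39 to -0.37) and -0.25 in 19q through -0.18 in 22q, -0.15 in 17q and -0.12 in 20q. It reached 0.13 in 4q (summed counts of 827293 and 835798), 0.11 in 6q, 0.11 in 13q, 0.10 in 5p and 0.09 in 18q. At a limit of 0.1, 7 of 39 arms were lower (17.9%), with 17p and 16p completing the group, and 4 were higher (10.3%). The 7 low arms hold densely packed genes, and the high arms include long stretches with few genes. From contacts between chromosomes alone, 19p was at -0.29, 19q at -0.21 and 22q at -0.22, and 4q at 0.09. No arm reached 0.1 on the high side there, and 7 stayed past the limit on the low side.

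**Figure D1:**
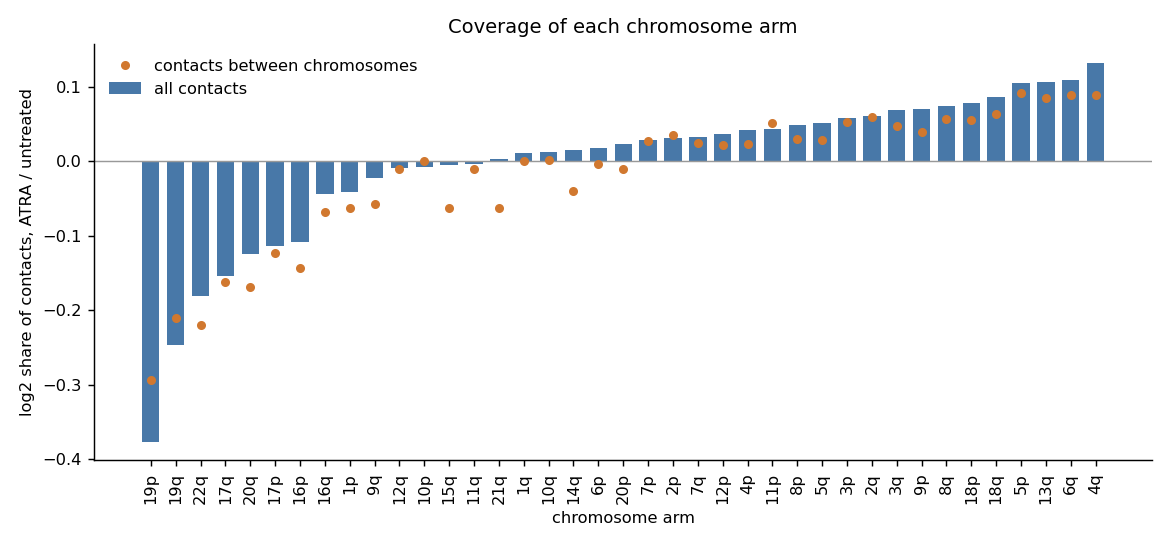
Log2 ratio of each arm's coverage summed over its bins, ATRA over untreated, from all contacts (bars) and from contacts between chromosomes (points), with arms ordered by the bars. From all contacts 19p is lowest at -0.38, then 19q at -0.25, and 4q is highest at 0.13. From contacts between chromosomes 19p is lowest, at -0.29, then 22q at -0.22 and 19q at -0.21.

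Contacts within arms were a smaller part of the ATRA matrix in all 39 arms, with log2 ratios from -0.83 in 19p to -0.17 in 4q. Contacts between the p and q arm of a chromosome differed less. Of 17 chromosomes with both arms, 4 had a ratio above 0 (23.5%), led by chromosome 4 at 0.07 (0.05 to 0.10). The lowest were chromosome 19 at -0.46 (9067 and 13809 contacts, -0.50 to -0.42) and chromosome 17 at -0.41 (6450 and 9479 contacts). As a share of contacts within chromosomes only, 15 of the 17 were above 0, and only chromosomes 17 and 19 stayed below, at -0.11 and -0.16.

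Place on the arm went with coverage as well. Bins within 1 Mb of an arm's outer end had a median log2 ratio of -0.22 (68 bins), those from 1 to 2 Mb -0.24 (78 bins) and those from 2 to 5 Mb -0.08 (234 bins). From 50 Mb inward the median was 0.11 (1951 bins). From contacts between chromosomes these 4 medians were -0.32, -0.30, -0.11 and 0.08. In 34 of 39 arms the median of the bins within 2 Mb of the end lay below that of the middle of the arm. At the centromere side, bins within 1 Mb of the gap had a median of 0.17 (57 bins), although only 0.07 between chromosomes. The next classes, from 1 to 2 Mb and from 2 to 5 Mb, were both at 0.06, below the median of 0.08 over all bins, and the bins near the gap lay above the middle of the arm in 26 of 37 arms. The A compartment is denser at arm ends, where 85.3% of the bins within 1 Mb were A, so medians are given by place and compartment together. These pool all arms, and the part of each was not tested. A bins within 5 Mb of an end had a median of -0.24 (264 bins) and A bins farther in -0.01 (2188 bins). B bins were at 0.03 near the ends (116 bins) and 0.13 farther in (2781 bins). Between chromosomes these 4 medians were -0.30, -0.03, 0.01 and 0.09. Within arms, A bins lay below B bins in 36 of the 38 arms that hold both, the exceptions being 14q and 18q. The compartment labels of 14q are weak, since their score barely followed contact with chromosome 19 (r = 0.00823 over the chromosome's bins, a description). On chromosome 18 the score followed that contact (r = 0.70), but all 30 bins of 18p were A, against 59 of 119 on 18q. Whether the labels there follow the arm was not tested.

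**Figure D2:**
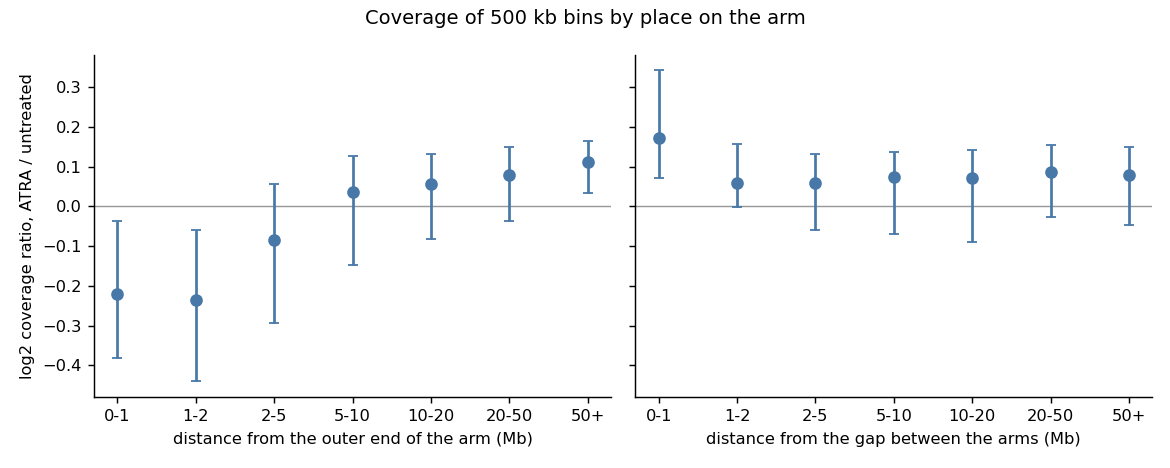
Median log2 coverage ratio of 500 kb bins (points) with the lower and upper quartile (bars) by distance in Mb from the arm's outer end (left) and from the gap between the arms (right). Medians run from -0.22 in the outermost 1 Mb to 0.11 beyond 50 Mb, and are highest, 0.17, within 1 Mb of the gap.

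Arm ends of different chromosomes also met each other less. Trans contacts among the 146 bins within 2 Mb of an end stood at 1.96 times the expectation from coverage in untreated cells (11889 contacts) and 1.76 times in ATRA (7570 contacts), a log2 change of -0.16 (-0.20 to -0.11). The 124 bins within 2 Mb of the gap stood at 1.28 and 1.24 times (3067 and 3381 contacts), a change of -0.05 whose interval, -0.12 to 0.02, includes 0. The 4632 bins 5 Mb or more from both stood at 1.01 and 1.00 times, a change of -0.003. Most end bins are A, 85.3% within 1 Mb and 73.1% from 1 to 2 Mb. Place and compartment were not separated in these contacts, and the part of each was not tested.

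At the level of single bins, 48 of 5349 had a coverage ratio of -0.5 or less (0.897%) and 9 had 0.5 or more (0.168%). Of the 48, 18 lay on 19p and 9 on 19q. The lowest was the bin from 45.5 to 46 Mb of chromosome 19, which holds RELB, a subunit of NF-kappaB, FOSB, a partner in the AP-1 transcription factor, and ERCC1 and ERCC2 of nucleotide excision repair. It held 2164 contacts in ATRA and 3924 in untreated cells, a ratio of -0.71 (-0.79 to -0.64). The next 4 lay near the end of 19p. The bin from 1 to 1.5 Mb (STK11, a kinase that senses energy shortage, and GPX4, which repairs oxidised lipids) was at -0.70, with 1714 and 3093 contacts. The outermost bin (SHC2, MIER2) was at -0.69, and the bin from 4.5 to 5 Mb (UHRF1, which maintains DNA methylation, and TICAM1, a Toll-like receptor adaptor) at -0.67. Between them, from 0.5 to 1 Mb, lies the bin of the neutrophil protease genes, at -0.68. All 5 also lost contacts between chromosomes, with ratios on that scale from -0.67 to -0.54.

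In these bins contacts within the chromosome differed more than those between chromosomes. Contacts within chromosomes were also the lower part over the whole matrix, at 32.1% in ATRA and 39.5% in untreated cells. Whether these bins differ from that was not tested. In the RELB bin, contacts under 2 Mb outside the bin itself numbered 787 in untreated cells and 243 in ATRA, which is 34.2% of their untreated share, while contacts with other chromosomes stood at 71.1% of theirs (2059 and 1322 contacts). In the STK11 bin the shares were 47.0% and 76.5%, and in the protease bin 44.0% and 73.4%. The 9 bins past the limit on the high side lay beside the gap on chromosomes 7, 11, 12 and 19, 7 of them in the class within 1 Mb and 2 at 1 Mb. Highest was the bin at 54.5 to 55 Mb of chromosome 11 with 2361 and 1537 contacts, a ratio of 0.77 (0.67 to 0.86), followed by 24.5 to 25 Mb of chromosome 19 at 0.67 and 62 to 62.5 Mb of chromosome 7 at 0.66. Neighbours at 61.5 to 62 Mb of chromosome 7 (0.57) and 38 to 38.5 Mb of chromosome 12 (0.55) came next. Repeats fill such regions, and 3 of these 9 bins passed the limit from contacts between chromosomes. No gene was placed in the top 5.

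The A share gave the clearest named group. After the median shift of -0.11 was taken off, 126 of 5349 bins were lower by 0.32 or more (2.36%) and 20 were higher (0.374%), and by construction 50% of bins lay below 0. Of the 126, 34 were on 19q and 14 on 19p. The 5 lowest were all bins with clusters of zinc finger genes, most of which encode KRAB repressors of transposable elements. The lowest was the bin from 12.5 to 13 Mb of chromosome 19, with ZNF709, ZNF791 and other members of the family beside JUNB, an AP-1 subunit, and KLF1, the erythroid transcription factor. Its A share was 61.1% in untreated cells and 46.7% in ATRA, a change of -0.72 ± 0.10. Its neighbour from 12 to 12.5 Mb (ZNF433, ZNF136, ZNF44) went from 56.9% to 43.3%, a change of -0.67 ± 0.10. At the end of 19q, the bins from 58.5 to 59 Mb (ZNF135, ZNF274, ZNF544) and 58 to 58.5 Mb (ZNF211, ZNF154, ZNF671) changed by -0.67 ± 0.09 and -0.65 ± 0.09. The bin from 9.5 to 10 Mb (ZNF426, ZNF561, ZNF562) was at -0.64 ± 0.08. In all 5, A bins were the majority of these partners in untreated cells and the minority in ATRA. Over all kept bins the A share was 50.4% in untreated cells and 47.6% in ATRA. By the compartment score along the chromosome, the bin from 12.5 to 13 Mb went from 0.29 to -0.63. The others were below 0 in both matrices, at -0.66, -0.61, -0.99 and -0.31 in untreated cells. That score is relative to the other bins of chromosome 19, and by it no bin of the chromosome was called as a move from A to B. A score from contacts between chromosomes, in SD over all kept bins, was on the A side for all 5 in untreated cells. In the order above it was 2.55, 1.71, 1.76, 1.30 and 1.69. In ATRA it was -0.01, -0.38, -0.03, -0.34 and -0.04.

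Because these bins drew attention, 204 zinc finger genes of known clusters were placed, a list chosen after the values were seen that supports no test. On chromosome 19, 21 bins with 3 or more of them had a median change of -0.48 (lowest -0.72, highest -0.08), and all 21 were below 0. Their median A share was 54.3% in untreated cells and 43.9% in ATRA. Their median compartment score along the chromosome, relative to its other bins, was on the B side in both, at -1.05 in untreated cells and -1.20 in ATRA. The 12 bins of chromosome 19 with only 1 or 2 placed genes had a median of -0.48 as well, and 11 were below 0. The 80 bins of chromosome 19 without a placed zinc finger gene had a median of -0.22, and 75 were below 0. Past the limit were 76.2% of the 21 bins, 75% of the 12 and 28.75% of the 80 (2.36% of all bins). Coverage ran the other way, with a median ratio of -0.20 in the 21 bins and -0.42 in the 80. Clusters differed among themselves. Toward the centromere of 19p, the bins from 22 to 22.5 Mb (ZNF43, ZNF208) and 23.5 to 24 Mb (ZNF91) were at -0.08 ± 0.09 and -0.23 ± 0.10, and on 19q the bin from 53.5 to 54 Mb (ZNF160, ZNF415) was at -0.17 ± 0.09. None of these passed the limit. Without chromosomes 17, 19 and 22 as partners the median of the 21 bins was -0.45.

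On other chromosomes, 23 bins with placed zinc finger genes had a median of -0.11, with 17 of 23 below 0 and 2 past the limit. The lowest, and the lowest bin outside chromosome 19, was the end of 12q (133.5 to 134 Mb with ZNF10, ZNF26, ZNF84 and ZNF268), whose A share was 63.3% in untreated cells and 51.8% in ATRA, a change of -0.57 ± 0.10. Bins without a placed zinc finger gene on those chromosomes had a median of 0.00 and a share past the limit of 1.46%. Then came the bins from 179 to 179.5 Mb of chromosome 5 (SQSTM1, an autophagy receptor, and CANX, a chaperone) at -0.55 ± 0.08 and from 15 to 15.5 Mb of chromosome 16 (PDXDC1) at -0.54 ± 0.12. The bins of FLT4, a receptor for lymphatic growth factors, and POLE, a DNA polymerase subunit, were each at -0.53.

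The partners of the 21 chromosome 19 bins changed in both directions. Their contacts with A bins of other chromosomes stood at 1.03 times the expectation from coverage in untreated cells and 0.882 times in ATRA (25418 and 17966 contacts), a log2 change of -0.22 (-0.25 to -0.20). With B bins they stood at 0.902 and 1.03 times (21920 and 23120 contacts), a change of 0.20 (0.17 to 0.22). The bins of chromosome 19 without placed zinc finger genes changed by -0.10 with A bins and 0.14 with B bins. Contacts with zinc finger bins of other chromosomes were above expectation in both matrices, at 1.30 and 1.51 times, but they rest on 251 and 240 contacts and the interval of the change, -0.04 to 0.48, includes 0.

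**Figure D3:**
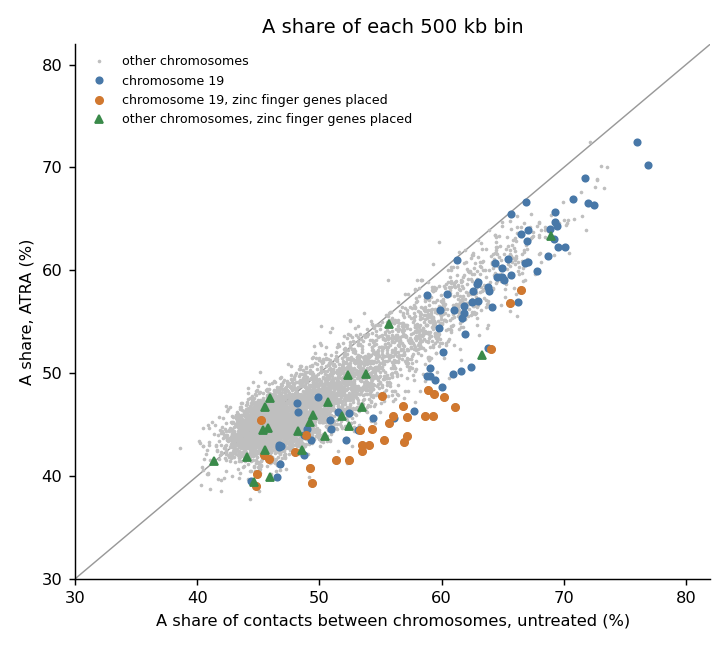
A share of contacts between chromosomes (percent) in untreated cells (x) and ATRA (y) for each of 5349 bins, with chromosome 19 and bins of placed zinc finger genes marked and the line of equality drawn. Zinc finger bins of chromosome 19 sit low under the line, at a median of 54.3% untreated and 43.9% in ATRA for those with 3 or more genes.

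The bins with a higher A share were scattered. The highest, 23.5 to 24 Mb of chromosome 3, holds UBE2E1, a ubiquitin-conjugating enzyme, and went from 45.1% to 50.1%, a change of 0.40 ± 0.13. The bin from 103.5 to 104 Mb of chromosome 8, with KLF10, a transcription factor induced by TGF-beta, and AZIN1, a regulator of polyamine synthesis, was at 0.37 ± 0.08 (50.1% and 54.6%). Bins at 12 to 12.5 Mb of chromosome 2 (0.38 ± 0.08), 29.5 to 30 Mb of chromosome 11 (0.37 ± 0.08) and 118.5 to 119 Mb of chromosome 7 (0.37 ± 0.11) have no placed gene. Only 6 of the 20 were called when A and B bins were taken from the TPA matrix, against 78 of the 126 falls.

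Local share compares contacts under 2 Mb with those farther along the chromosome. It was lower in ATRA by 0.50 (log2 odds) at the median bin, and relative to that 192 of 5331 bins were lower by 0.5 or more (3.6%) and 158 higher (2.96%). Lowest was the outermost bin of 4p, with zinc finger genes again (ZNF595, ZNF141), where 41.3% of contacts along the chromosome were local in untreated cells and 17.5% in ATRA, a change of -1.23 ± 0.17. A bin inside PRKG1, a cGMP-dependent kinase gene (53 to 53.5 Mb of chromosome 10), had 26.5% and 10.6%, and one at SPOCK1, a proteoglycan gene (136 to 136.5 Mb of chromosome 5), 31.0% and 12.9%. PRKG1 and SPOCK1 are long genes. The bin of KIF26A and ASPG near the end of 14q had 54.9% in untreated cells and 29.2% in ATRA (-1.06), and the bin of DOCK3, CISH and MAPKAPK3 on 3p 50.8% and 26.2% (-1.04). CISH is a brake on cytokine signalling. The highest bins lay on 21q and beside the centromere of 19p. The bin from 21 to 21.5 Mb of chromosome 21 had 43.1% in untreated cells and 57.0% in ATRA, a change of 1.30 ± 0.22, and the zinc finger bin of ZNF91 on 19p 37.2% and 48.4% (1.16 ± 0.17). The other 3 were 16.5 to 17 Mb (1.10) and 20.5 to 21 Mb (1.06) of chromosome 21 and 24.5 to 25 Mb of chromosome 19 (1.03). Of the 158, 20 lay on 21q and 13 on 19p.

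Compartment scores along chromosomes were largely shared, with r = 0.91 over the 5349 bins, a description over bins that share libraries. By the score, 25 bins went from beyond 0.5 SD on the A side to beyond 0.5 SD on the B side (0.467%), and 7 went from B to A (0.131%). Chromosome 21 needs separate treatment, because its ATRA score followed the score of the summed matrix only at r = 0.395, and without it the counts were 21 and 4. Within chromosome 21 the bin of RUNX1, a master regulator of blood formation, went from -0.56 to 1.17 and that of OLIG2 from -0.54 to 1.60, but their A share changes between chromosomes were -0.01 ± 0.07 and 0.05 ± 0.07. None of the 25 bins was among the 9 that went from A to B by the eigenvector of contacts between chromosomes, and 2 of the 25 were among the 126 bins with a lower A share.

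The 4 moves from B to A outside chromosome 21 have named genes. The bin of BTG1, an antiproliferative gene on chromosome 12 (92.5 to 93 Mb), went from -0.70 to 0.96, with an A share of 47.4% in untreated cells and 50.8% in ATRA, a change of 0.31 ± 0.09. VCAM1, a vascular adhesion molecule on chromosome 1, lies in a bin that went from -0.57 to 0.80, with an A share change of 0.20 ± 0.09. The bins of HIVEP2, a zinc finger transcription factor, and TMC1, a channel of inner ear hair cells, went from -0.51 to 0.55 and from -0.56 to 0.56. In these 4 bins the A share change was above 0 too, though none reached 0.32. The moves from A to B with the largest change were on chromosome 21 at 11 to 11.5 Mb (1.69 to -0.90) and 9.5 to 10 Mb (1.72 to -0.83), with no placed gene. Outside it, the bin of PTGR1 and ZNF483 on chromosome 9 went from 1.01 to -0.84 with an A share change of 0.01 ± 0.08. The bin of MAL and TEKT4 beside the centromere of chromosome 2 went from 0.57 to -1.07 with -0.16 ± 0.08.

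Arms of different chromosomes form 724 pairs, and their contacts were divided by an expectation that gives each arm its own coverage. At a log2 change of 0.2, 16 pairs were lower (2.21%) and 8 higher (1.1%). Lowest was 19q with 22q, at 1.94 times the expectation in untreated cells (5232 contacts) and 1.32 times in ATRA (2667 contacts), a change of -0.55 (-0.62 to -0.48). Then came 19q with 20q (-0.46), 16p with 17p (-0.46), 16p with 19q (-0.45) and 17p with 19q (-0.41). Small gene-rich chromosomes share the centre of the nucleus in many cell types. All 19 pairs among the 7 arms with the lowest coverage ratio had a change below 0, with a median of -0.33. Over all 724 pairs, 325 were below 0 and the median was 0.01. The 7 arms were picked by coverage ratio from these same matrices, so the count supports no test. All 19 were above the expectation in both matrices, and the smallest value was 1.37 in untreated cells and 1.07 in ATRA, both for 17q with 19q. The raised pairs joined one such arm to a gene-poor one: 6q with 19p at 0.676 times in untreated cells and 0.823 times in ATRA (3600 and 3849 contacts, 0.28), 13q with 19p (0.28), 4q with 19p (0.27), 6q with 19q (0.27) and 9p with 19q (0.26). The whole pattern of pairs was flatter in ATRA. Of 286 pairs above the expectation in untreated cells 229 were lower in ATRA, and of 438 below it 342 were higher. These counts share the untreated matrix on both sides, and the larger share of contacts between chromosomes in ATRA moves with them, and its part was not tested.

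**Figure D4:**
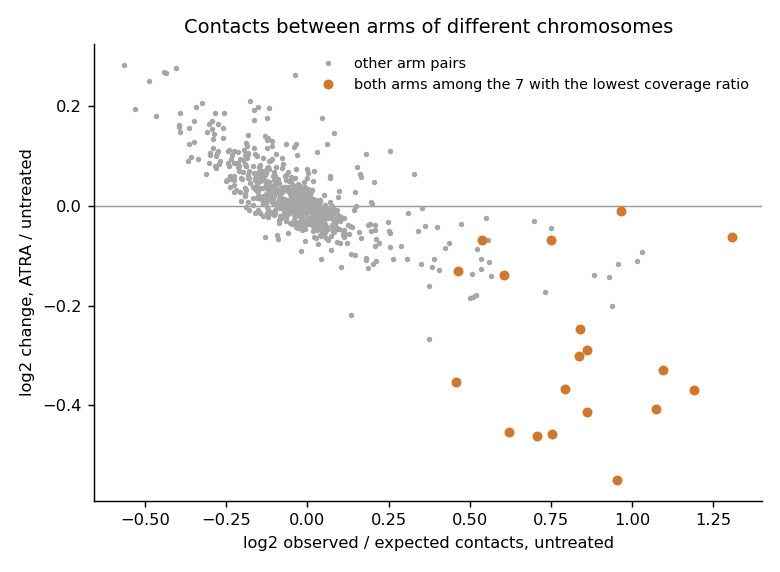
Log2 change in contacts over expectation between arms of different chromosomes (y, ATRA over untreated) against log2 observed over expected in untreated cells (x). Pairs of the 7 arms with the lowest coverage ratio, picked from the same matrices, all lie below 0, with a median of -0.33. Of all 724 pairs, 325 lie below 0, and the lowest is 19q with 22q at -0.55.

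Within arms, 13662 bin pairs at least 1 Mb apart held 40 or more contacts in both matrices together. Against the mean at the same distance on the arm, 277 were lower by 1 or more on the log2 scale (2.03%) and 206 higher (1.51%), a level at which counting error is large. The largest fall, 4 contacts in ATRA and 46 in untreated cells, joined the bin of CILP2 and PBX4 (19.5 to 20 Mb of chromosome 19) to the zinc finger bin from 22.5 to 23 Mb (-2.42). On 19q, the bin of CD33 and SIGLEC10, both sialic acid receptors of myeloid cells, met the zinc finger bin from 53.5 to 54 Mb 5 times in ATRA and 45 times in untreated cells (-2.13). The other 3 joined CAMTA1 to SLC2A5 and H6PD on 1p (7 and 46 contacts), OGDH to ADCY1 on 7p (10 and 74) and TNFRSF18 and TNFRSF4 to the bin from 2.5 to 3 Mb on 1p (5 and 37). In each of these 5 the untreated contacts exceeded those in ATRA several times over.

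Of the 5 highest, the 4 described here had 29 to 40 contacts in ATRA against 10 to 16 in untreated cells. On 3q the bin of PIK3CA, a lipid kinase subunit, met the bin from 180 to 180.5 Mb 30 times in ATRA and 12 times in untreated cells (1.89, 0.92 to 3.03). On 12q the bin of KITLG, the ligand of the KIT receptor, met the bin from 91 to 91.5 Mb 40 and 16 times (1.88). On 12p the bin of DDX11 met a bin toward the centromere 30 and 10 times (1.86). The last, on 3p (82 to 82.5 with 83 to 83.5 Mb, 29 and 14 contacts), has no placed gene.

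Genes of neutrophil maturation lay mostly in bins with a lower share of contacts in ATRA, and most of them lay in A bins. Of all kept bins, 31.4% had a coverage ratio below 0 and the median was 0.08. Of the A bins, 52.5% were below 0 at 5 Mb or more from an arm end (median -0.01). Within 5 Mb of an end it was 84.5% (median -0.24). Whether any list differs from A bins at like places was not tested. Among 12 primary granule genes, in 8 bins, 9 were below 0 and the median was -0.10. ELANE, AZU1 and PRTN3, the neutrophil serine protease family silenced as promyelocytes mature, share 1 bin, from 0.5 to 1 Mb of chromosome 19. It held 1498 contacts in ATRA and 2657 in untreated cells, a ratio of -0.68 (-0.77 to -0.59), and its A share was 70.2% in ATRA and 76.9% in untreated cells, a change of -0.38 ± 0.13. MPO, myeloperoxidase, was at -0.10 (-0.15 to -0.04) with 4671 and 5536 contacts but at 0.02 between chromosomes, and its A share change was -0.19 ± 0.07. CTSG, a further serine protease on another chromosome, was at 0.08 and 0.10 ± 0.08. The bin of SERPINB1, an inhibitor of these proteases, had the list's highest A share change, 0.20 ± 0.08. Only the protease bin passed a limit, and its arm, 19p, was the lowest of all 39.

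Among 14 secondary and tertiary granule genes, 9 were below 0 with a median of -0.16. LCN2, which binds bacterial siderophores, was lowest at -0.52 (2890 and 4587 contacts, -0.59 to -0.45), then MMP9, gelatinase, at -0.38. ARG1, arginase, was highest at 0.26 and OLFM4 at 0.20. Their A share changes had a median of 0.00, from -0.27 in the bins of HP and CAMP to 0.19 at MMP9 and 0.15 at LTF, lactoferrin, and none passed the limit. Of 20 receptor and oxidase genes 18 were below 0, with a median of -0.27. CYBA, a subunit of the phagocyte oxidase, was at -0.57 (1542 and 2531 contacts) and C5AR1, the complement C5a receptor, at -0.46. ITGAM, the CD11b chain used to follow ATRA's effect on HL60, lay in a bin at -0.43 (2839 and 4232 contacts, -0.50 to -0.36) with an A share change of -0.01 ± 0.09. The lowest A share changes were at NCF1 (-0.36 ± 0.17, a bin of 816 and 1093 contacts in a duplicated region) and FPR1, a formyl peptide receptor, at -0.31 ± 0.09, and FCGR3B, an Fc receptor, was among the highest at 0.13. FPR1 shares its bin with 4 of the placed zinc finger genes of 19q.

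Of the 23 retinoid pathway genes 16 were below 0, with a median of -0.06. RARA, the receptor that carries ATRA's effect in these cells, lay in a bin at -0.35 (3747 and 5283 contacts, -0.41 to -0.29) with an A share change of -0.14 ± 0.08. ICAM1, an adhesion molecule on 19p, was lowest at -0.55 and RXRA, the partner receptor, at -0.47, while RARRES1 (0.22) and CYP26B1 (0.16) were highest. By A share change, DHRS3, a retinal reductase, was highest at 0.25 ± 0.09, then CYP26A1, and ICAM1 (-0.35) and RXRB (-0.31) were lowest. Of the 23 genes, 3 lay in bins past the limit for a higher local share relative to the median bin (2.96% of all bins). These are 2 bins, since CYP26A1 and CYP26C1 share one. None lay past the limit for a lower one (3.6% of all bins).

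Among 18 myeloid transcription factors, 10 were below 0 in coverage (median -0.01), and 4 lay in bins with an A share past the limit on the low side, against 2.36% of all bins. They were JUNB (-0.72), CEBPA, which starts granulocyte commitment (61.5% in untreated cells, 50.2% in ATRA, -0.55 ± 0.09), GFI1, a repressor (-0.37), and EGR1, a monocyte-promoting factor (-0.33). JUNB and CEBPA are on chromosome 19, where 14 of 50 bins of 19p and 34 of 63 bins of 19q passed this limit. CEBPD (0.15) was highest. By coverage JUNB and CEBPB (-0.48) were lowest and RUNX1 (0.12) highest. CEBPE, which drives the late granulocyte stages, was at -0.25 (-0.31 to -0.19) with 3829 and 5056 contacts and an A share change of -0.10 ± 0.07. Its compartment score went from -0.49 to 0.78, on the chromosome whose labels are weak. Of 12 progenitor and proliferation genes 6 were below 0 (median 0.02). TERT, the telomerase catalytic subunit near the end of 5p, was lowest at -0.54 (3241 and 5222 contacts), then FLT3 at -0.20. MEIS1, a leukemia-linked homeobox gene, was highest at 0.22, then KIT at 0.13, and no A share change in this list passed the limit, from -0.18 at TERT and -0.11 at GATA2 to 0.19 at HOXA9 and MEIS1.

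Genes of other blood lineages also had median ratios below 0, with -0.11 for 12 macrophage genes, -0.12 for 12 lymphoid genes and -0.31 for 10 erythroid and megakaryocytic genes. Among the lowest ratios were APOE (-0.56) and CD68 (-0.45), CD4 (-0.40), and EPOR (-0.57) and HBA1 (-0.50). Among the highest were MSR1 (0.18) and VCAN (0.14), IL7R (0.19) and RAG1 (0.09), and PF4 (0.09). By A share change, APOE (-0.58), KLF1 (-0.72) and EPOR (-0.46), all on chromosome 19, passed the limit, and KLF1 shares the bin of JUNB. KLF1 and EPOR start within 20 kb of a bin edge. No bin of the lymphoid list passed it, with CD79A (-0.22) and MS4A1 (-0.14) lowest and RAG1 (0.16) and EBF1 (0.06) highest. On the same scale CD14 was at -0.20, MMP12 at 0.15, VCAN at 0.10, HBB at 0.27 and PF4 at 0.19. The 12 neuronal genes, long and silent in blood, had ratios above 0, as most B bins did: all lay in B bins in both matrices, with ratios from 0.07 (CDH10) and 0.10 (DLG2) to 0.23 (ROBO2 and CSMD1), and a median of 0.15. Of the B bins 5 Mb or more from an arm end, 9.42% were below 0, and their median was 0.13. The neuronal genes' median A share change was 0.08, from -0.09 at GRIA2 and -0.02 at PCDH9 to 0.15 at DLG2 and 0.16 at CNTNAP2.

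From contacts between chromosomes alone, an alternative added after the values were seen, 37% of all kept bins had a coverage ratio below 0 and the median was 0.05. A bins had a median of -0.30 within 5 Mb of an arm end and -0.03 farther in. List medians on that scale were -0.12 for primary granule genes (7 of 12 below 0), -0.20 for secondary and tertiary granule genes (9 of 14), -0.27 for receptors and oxidase (18 of 20) and -0.17 for retinoid pathway genes (15 of 23). Myeloid transcription factors were at -0.04 (10 of 18) and progenitor genes at 0.01 (6 of 12). Macrophage genes were at -0.09, lymphoid genes at -0.14, erythroid and megakaryocytic genes at -0.31 and neuronal genes at 0.09. The lymphoid list had 9 of 12 genes below 0, and the neuronal list had 1, CDH10, at -0.01. Among retinoid genes RARA was at -0.32 and CYP26A1 at -0.13, and ITGAM was at -0.37.

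**Figure D5:**
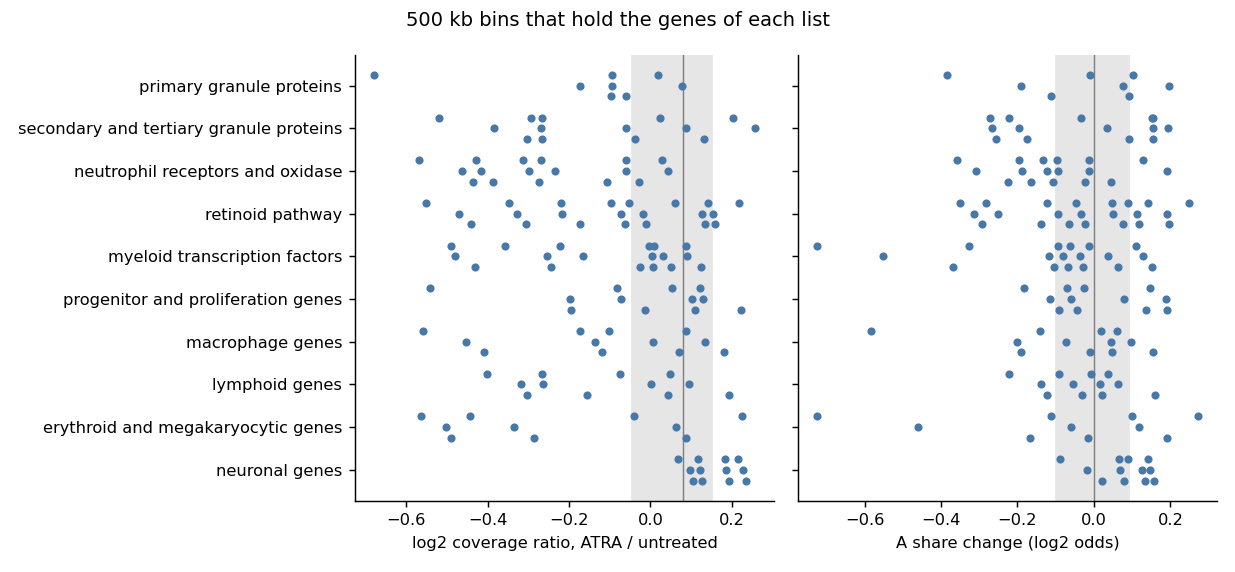
Log2 coverage ratio (left) and A share change in log2 odds (right) of the 500 kb bins that hold the genes of each list, 1 point per bin, with the median (line) and quartiles (grey) of all kept bins. Receptor and oxidase genes have a median coverage ratio of -0.27, and all neuronal genes lie at 0.07 or above.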

How the data were processed

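The authors deposited 1 matrix of raw contact counts per condition between bins of 500 kb, whole numbers with no normalization per the file headers and the values. Reads were aligned with Bowtie to hg19 and matrices made with HOMER 4.7, per the submitters' processing notes, and filtered with HiCUP, per the series' design text. Filter settings are not stated in the labels. The 2 untreated libraries are merged, and the labels do not say whether they came from separate cultures.

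Columns of chromosomes X, Y and M (430 in each matrix) were not used. Counts on the diagonal were halved. Coverage ratios are log2 ratios of shares of all autosomal contacts, with exact conditional intervals. Arm coverage is summed over bins, and its intervals make no allowance for contacts within an arm that count at both bins. A and B bins came from the eigenvector of the summed ATRA and untreated matrix after 60 balancing iterations, signed by contact with chromosome 19. Compartment moves needed 0.5 SD on both sides. A share and local share are log2 odds less the median over bins, and local share needed 20 contacts on each side. Arm pairs used an expectation fitted iteratively to arm coverage, and bin pairs 0.5 added contacts. Limits were 0.5 (coverage, local share), 0.32, 0.1 (arms), 0.2 (arm pairs) and 1 (bin pairs).

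Members and lists were chosen with earlier results of these data known. By rule, named items are the 5 largest rises and falls per measure and, per list, the 2 highest and 2 lowest genes, plus MPO, ELANE, CEBPE, RARA, CYP26A1, ITGAM, MYC and CDKN2A. Some items that the rule names are not reported here. Its part on all protein-coding genes of a bin needs an hg19 annotation, which was not used here, so known genes of a bin and further bins were chosen after their values were seen. hg19 gene starts (427 genes) were placed from general knowledge. All 427 matched a RefSeq gene of GRCh38.p14 on the same chromosome, and for 420 the shift between builds was within 50 kb of that of a neighbouring gene. The 7 not within that limit include TMC1 and CEBPD, so their bins are less sure. Of 147 list genes, 10 start within 20 kb of a bin edge. The calls of bin coverage, A share, compartment moves, arm pairs and bin pairs were tried on changes planted in matrices drawn from the untreated one. Local share, place on the arm, contacts between p and q arms, zinc finger contacts, gene placement and the motif search were not. Python 3.11.15, NumPy 2.4.6, pandas 2.3.3 and SciPy 1.17.1 were used.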

Additional observations from a re-analysis of the deposited data

How the results depend on the processing

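The arms past the limit kept their sign under the 3 alternatives tried for arms, while 20 of 39 arms, all under the limit, changed sign under at least 1 of them. Values of the 10 named A share bins kept their sign, and 1 gene list median, the A share of macrophage genes, changed sign over 3 bins (0.00 and -0.05). Counts of calls moved with several settings. From contacts between chromosomes alone, 3 bins were higher in coverage and 0 arms were higher. Scaled to the median bin, 4 bins were higher, 95 lower and 0 arms higher, and medians of bins gave 11 higher arms. A limit of 0.3 gave 48 higher and 314 lower bins. Without the median subtracted, local share gave 8 higher and 2656 lower bins, and A share 0 and 494. With only the top and bottom 20% of bins as partners, 249 bins had a higher and 389 a lower A share. Moves from A to B numbered 83 at 0.3 SD, 9 by the eigenvector of contacts between chromosomes and 67 without correction for bin coverage. Moves from B to A numbered 32, 0 and 45, and 4 without chromosome 21, an alternative chosen after seeing the data. An expectation from the number of bins gave 84 arm pairs with fewer contacts. As a share of contacts within chromosomes, 15 chromosomes had more contacts between p and q arm. With 80 contacts required, 11 bin pairs were higher and 34 lower. Over 3 bins, the median coverage ratio was -0.19 for neutrophil receptors and oxidase and -0.23 for erythroid and megakaryocytic genes. From contacts between chromosomes, added after seeing the data, it was -0.17 for retinoid genes (-0.06 from all contacts). Leaving out a replicate could not be done, since the untreated libraries are merged and ATRA has 1. No paired analysis was possible because each condition is 1 matrix. Depth limits single bin pairs most, and the intervals leave out any spread between cultures.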
